A study of Solanum lycopersicum with 9 samples.

Results

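Class III peroxidases are the plant-specific secreted peroxidases, encoded in tomato by a large gene family. Members were the rows of the deposited gene table whose description holds the word peroxidase, without ascorbate, glutathione and thioredoxin peroxidases, which are other enzymes. The rule found 123 genes of 40229. By their descriptions 116 of these are class III peroxidases, 112 of them described only as peroxidase. The other 7 are not: 6 are described as related to haloperoxidases and acid or phosphatidic acid phosphatases, and 1 is OVEREXPRESSOR OF CATIONIC PEROXIDASE 3 (OCP3), a regulator. These 7 are kept in the counts over all members and described apart.

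Class III peroxidases are haem enzymes that pass through the secretory pathway to the cell wall or the vacuole and use hydrogen peroxide to oxidise phenolic compounds. In walls they couple monolignols into lignin and cross-link extensins and other phenolic-bearing polymers, which stiffens the wall, and they can also form hydroxyl radicals that cut polysaccharides and loosen it. In germinating seeds of several species both kinds of activity have been placed in the endosperm cap, which must weaken before the radicle emerges, and in the growing radicle.

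Tomato (Solanum lycopersicum) seeds were imbibed for 6 h and their RNA was sequenced, imbibition being the water uptake with which germination begins. The 3 groups were seeds of an SlLBD40 knockout, seeds of an SlWRKY37 knockout and wild-type (WT) seeds, with 3 libraries each, called LBD40 knockout, WRKY37 knockout and WT below. Both targeted genes encode plant transcription factors, SlLBD40 of the LOB domain family and SlWRKY37 of the WRKY family. The sources used here give no cultivar, kind of edit, number of independent lines or seed lots. The p-values therefore measure only the spread between these libraries, which may be technical.

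Values are expression values taken as FPKM, a unit that corrects read numbers for the length of a transcript and the size of a library. They summed to 856291 to 918103 per library, with 23206 to 24507 genes above 0, and no read counts were given, which leaves sequencing depth unknown. The gene described as WRKY transcription factor 37, on chromosome 1, had 0.23, 0 and 0 FPKM in the WRKY37 knockout against 0.28, 0.70 and 0.92 FPKM in WT. The gene described as LOB domain-containing protein 40, on chromosome 5, had 42.9, 43.9 and 36.1 FPKM in the LBD40 knockout against 20.4, 5.60 and 11.8 FPKM in WT. Whether these rows are the edited genes was not settled, an edit need not lower the RNA, and the groups are called by their labels. Seed markers were abundant in every library: 19 oleosin genes, which coat oil bodies, summed to 2797 to 3507 FPKM in the LBD40 knockout, 2824 to 5213 FPKM in the WRKY37 knockout and 7074 to 9537 FPKM in WT.

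Most class III peroxidase genes were listed at 0 or at low values in these seeds. Of 116, 40 were listed at 0 in all 9 libraries and 76 were above 0 in at least 1. A mean of at least 1 FPKM over the 9 libraries, the level required for testing, was reached by 25 (21.6%), and a mean of at least 10 FPKM by 9. The remaining 51 that were above 0 were too low to be tested, and 36 of them never reached 0.5 FPKM. Just inside the limit were K4CQE1, with a mean of 1.06 FPKM, and K4BDL3, with 1.34 FPKM. Just outside it were K4BTH7, with 0.841 FPKM, and K4CJ27, with 0.796 FPKM.

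Genes are named here by the protein database entry in their description, such as K4BD54, with the chromosome, and genes that share an entry are numbered as copies in the order of the table. These copy numbers are not official names. Of the class III members, 3 carry a gene name in the table: TPX1 and TPX2, cloned as tomato peroxidases, and CEVI16, known from viroid-infected tomato. The TPX1 description was on chromosome 7 and TPX2, which has been tied to germination under osmotic stress in tobacco, was among the untested genes, with no value above 0.18 FPKM. The 25 tested genes lay on 10 chromosomes, with 6 on chromosome 2, 5 on chromosome 11 and 4 on chromosome 1, and none of the class III genes on chromosomes 5 and 6, which carry 12 and 4, was tested.

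**Figure D1:**
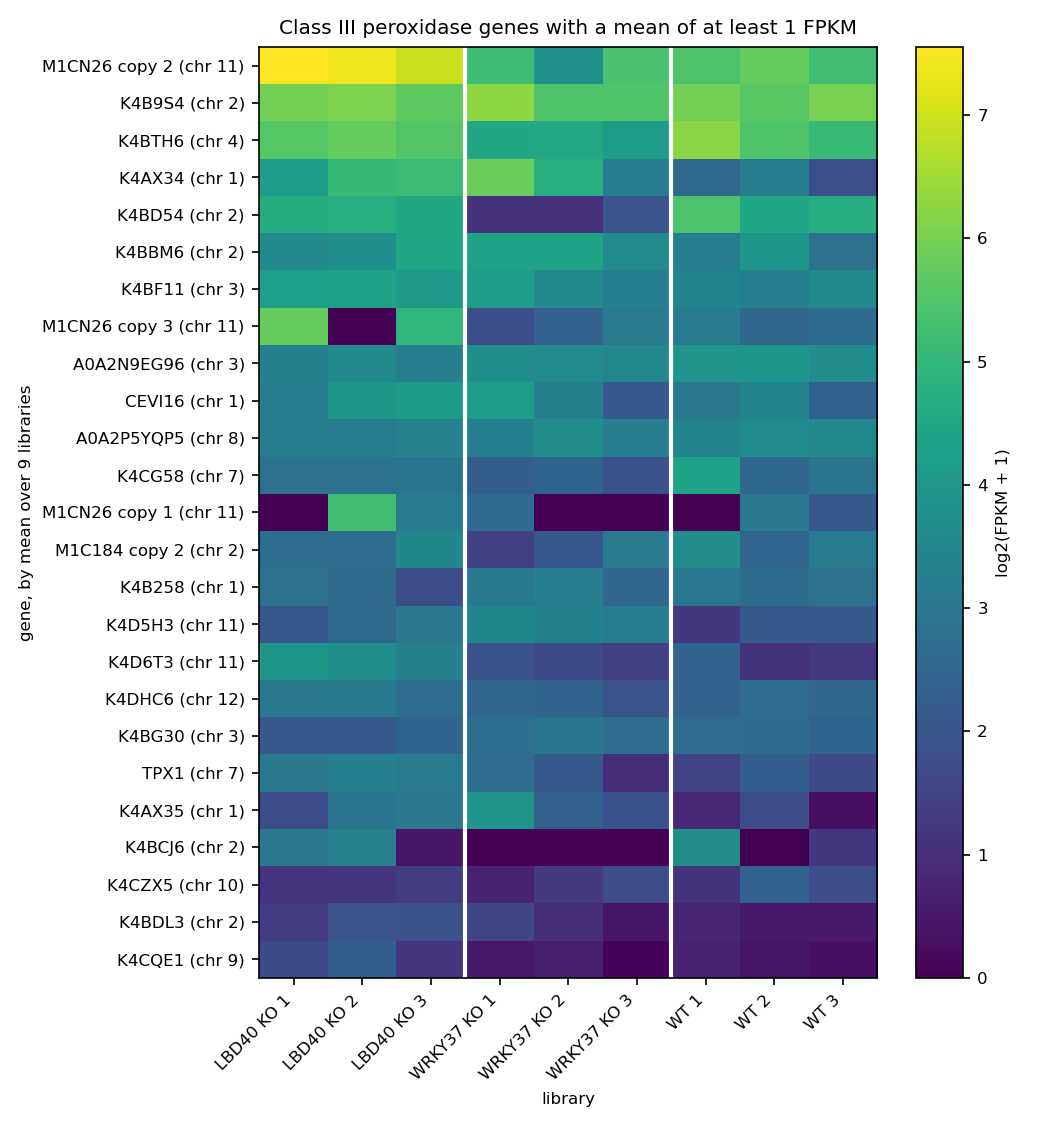
Level of each of the 25 tested class III peroxidase genes, as log2(FPKM + 1) on the colour scale, in the 9 libraries (columns; LBD40 knockout, WRKY37 knockout and WT from left to right), ordered by their mean. M1CN26 copy 2 is brightest in the 3 LBD40 knockout libraries, and K4BD54 is dark in the 3 WRKY37 knockout libraries.

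A few genes made up most of the family's RNA. The 3 highest class III members, M1CN26 copy 2 on chromosome 11, K4B9S4 on chromosome 2 and K4BTH6 on chromosome 4, held 49.0% of the summed class III value over the 9 libraries, and the 10 highest held 77.3%. By group mean, the leading gene differed between the groups. M1CN26 copy 2 held 31.4% of the sum in the LBD40 knockout, 11.6% in the WRKY37 knockout and 14.5% in WT. K4B9S4 held 11.7% in the LBD40 knockout, where it came after M1CN26 copy 2, and led with 21.0% in the WRKY37 knockout and 19.1% in WT. The lead in WT was one of means and did not hold in each library. K4BTH6 was above K4B9S4 in WT replicate 1, at 74.3 against 61.4 FPKM. M1CN26 copy 2 was above it in WT replicate 2, at 53.7 against 48.7 FPKM.

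The summed class III genes took a larger share of the RNA in the LBD40 knockout. The summed class III values were 0.0611, 0.0602 and 0.0506% of the library total in the LBD40 knockout, 0.0385, 0.0250 and 0.0238% in the WRKY37 knockout, and 0.0401, 0.0322 and 0.0291% in WT. The 3 LBD40 knockout libraries lay above the other 6, while the WRKY37 knockout and WT libraries overlapped. Without M1CN26 copy 2 the share was 0.0371 to 0.0414% in the LBD40 knockout, 0.0191 to 0.0344% in the WRKY37 knockout and 0.0250 to 0.0354% in WT. The LBD40 knockout libraries still lay above the others, by a smaller margin, but M1CN26 copies 1 and 3 stayed in this share. All 3 copies together made 240 of 523.1, 204 of 536.8 and 160 of 459.6 FPKM in the LBD40 knockout libraries. In the WT libraries they made 49.7 of 358.8, 65.6 of 293.1 and 45.5 of 260.8 FPKM. Outside these copies WT replicate 1 thus held more than LBD40 knockout replicate 1, while WT replicates 2 and 3 held less than every LBD40 knockout library. The groups overlapped there, so the larger share is not shown apart from M1CN26. In RNA from whole seeds, more cells that use a gene and more RNA per cell cannot be told apart. Beside these shares, the number of class III genes above 0 was 53, 55 and 61 in the LBD40 knockout libraries, 46, 43 and 38 in the WRKY37 knockout libraries and 47, 43 and 48 in the WT libraries. Over all genes it was 24106 to 24507 in the LBD40 knockout, 23206 to 23929 in the WRKY37 knockout and 24058 to 24161 in WT.

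**Figure D2:**
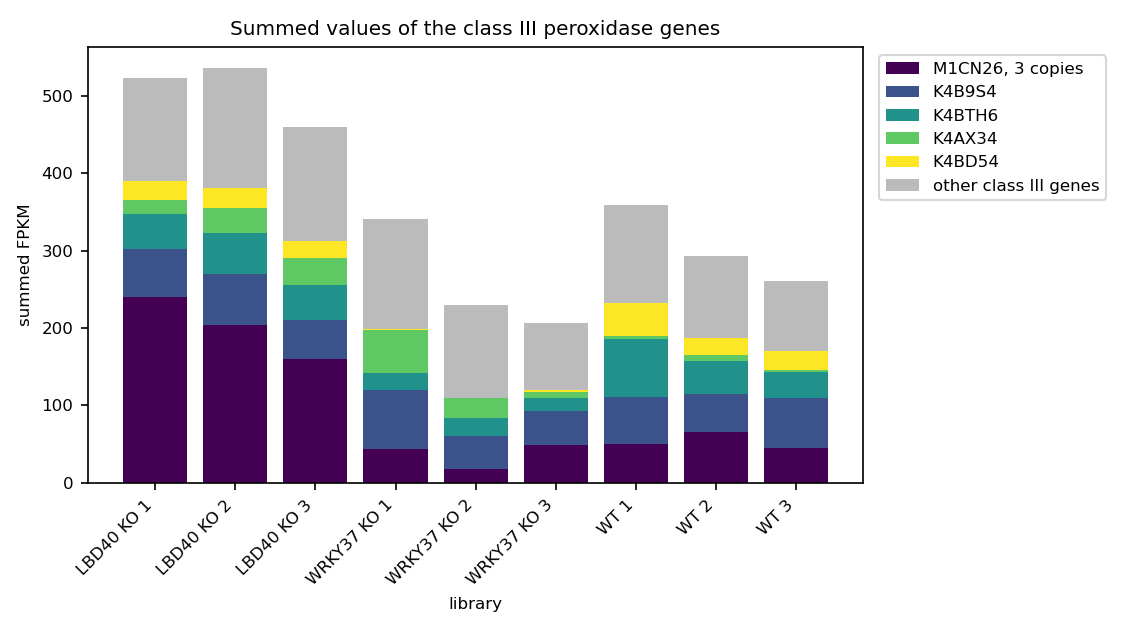
Summed FPKM of the 116 class III peroxidase genes in each library, with the 3 M1CN26 copies and 4 other abundant genes in colour and all other class III genes in grey. The sums are 459.6 to 536.8 in the LBD40 knockout, 206.0 to 340.6 in the WRKY37 knockout and 260.8 to 358.8 in WT, and the 3 M1CN26 copies make up much of the difference between the LBD40 knockout and WT.

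The first comparison asked which peroxidase genes differed in the LBD40 knockout. Of the 32 tested members, 12 passed the test against WT (limma, adjusted p below 0.05), 11 of them higher and 1 lower. This is 37.5% of the tested members, where 37.2% of all 18346 tested genes passed, so the number that changed was at the background. The directions were less even: 34.4% of the tested members rose against 18.0% of all genes, and 3.12% fell against 19.2% of all genes. The median log2 change of the tested members was 0.53, and that of all tested genes was -0.023. Of the 25 tested class III genes, 8 rose, 1 fell and 16 did not pass, with a median log2 change of 0.62. The counts carry a limit of the low-value filter: 3 members, K4CQE1, K4BDL3 and Q8RXV2, had a WT mean under 1 FPKM, so that they were tested because of their level in the knockouts, and all 3 were among the 11 that rose.

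**Figure D3:**
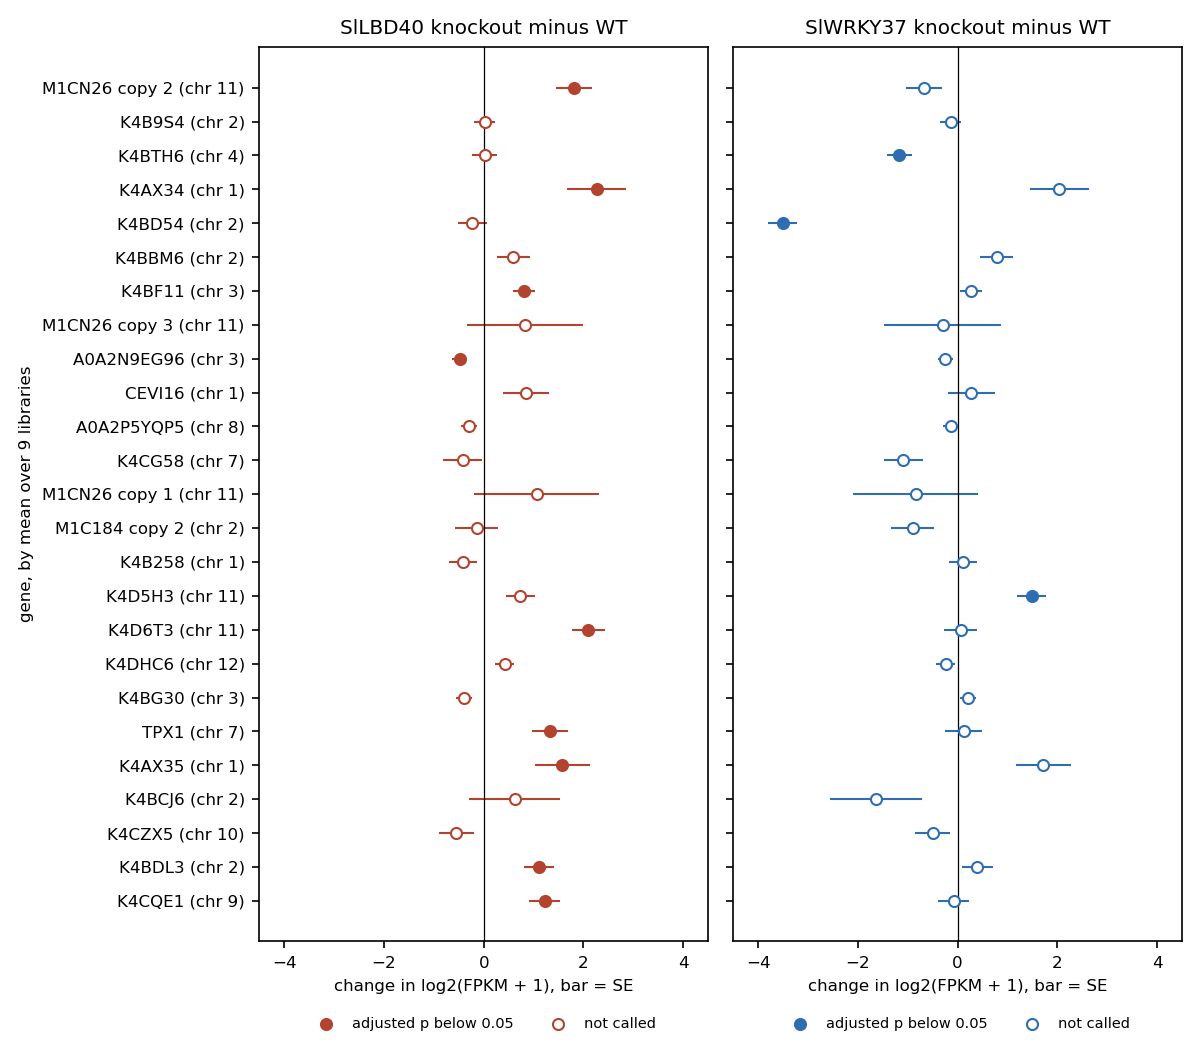
Change of each tested class III gene in the LBD40 knockout minus WT (left) and in the WRKY37 knockout minus WT (right), on the log2(FPKM + 1) scale with its standard error; filled points passed at an adjusted p below 0.05. On the left 8 filled points lie to the right of 0 and 1 to the left; on the right 1 lies to the right and 2 to the left. Both panels use the same WT libraries.

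The largest gain in level came from a group of neighbouring genes on chromosome 11. M1CN26 copies 1, 2 and 3 and K4D6T3 stood within a few rows of each other in the table, which is ordered by gene ID along the chromosome. M1CN26 copy 2 had 187, 167 and 122.6 FPKM in the LBD40 knockout, 36.0, 12.9 and 40.9 FPKM in the WRKY37 knockout, and 42.1, 53.7 and 36.8 FPKM in WT. Every LBD40 knockout library was above the highest of the other 6. The means were 159 ± 33.0 FPKM in the LBD40 knockout and 44.2 ± 8.64 FPKM in WT (SD, n = 3 each), a ratio of 3.60 (log2 change 1.82 ± 0.36 SE, limma, adjusted p = 0.00423).

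K4D6T3, next to the M1CN26 copies, moved the same way at a lower level. It had 14.8, 12.6 and 8.99 FPKM in the LBD40 knockout, 2.64, 2.17 and 1.67 FPKM in the WRKY37 knockout, and 4.27, 1.17 and 1.38 FPKM in WT. Again the 3 LBD40 knockout libraries lay above all others, with a log2 change against WT of 2.10 ± 0.33 (SE, limma, adjusted p = 0.00140). The calls for M1CN26 copy 2 and K4D6T3 were kept under all 20 alternative settings tried for each.

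The 2 other M1CN26 copies were unstable between libraries and did not pass. Copy 1 was at 0, 36.9 and 7.67 FPKM in the LBD40 knockout, 5.27, 0 and 0 FPKM in the WRKY37 knockout, and 0, 7.20 and 3.38 FPKM in WT. Copy 3 was at 53.6, 0 and 30.2 FPKM in the LBD40 knockout, 2.53, 4.23 and 7.86 FPKM in the WRKY37 knockout, and 7.59, 4.67 and 5.26 FPKM in WT. In the LBD40 knockout, copy 1 was listed at 0 where copy 3 was highest, and copy 3 was listed at 0 where copy 1 was highest. Copies with one database entry may share reads, and the authors' way of dividing such reads is not stated in the labels, so the value of each single copy is uncertain.

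A sum of the 3 copies depends less on how reads were divided among them, though reads shared with other genes or left out would still affect it. The sum was 240, 204 and 160 FPKM in the LBD40 knockout, 43.8, 17.1 and 48.8 FPKM in the WRKY37 knockout, and 49.7, 65.6 and 45.5 FPKM in WT. With the copies summed before the fit, an alternative chosen after the data were seen, the log2 change was 1.89 ± 0.34 (SE, limma, adjusted p = 0.00252) in the LBD40 knockout against WT.

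**Figure D4:**
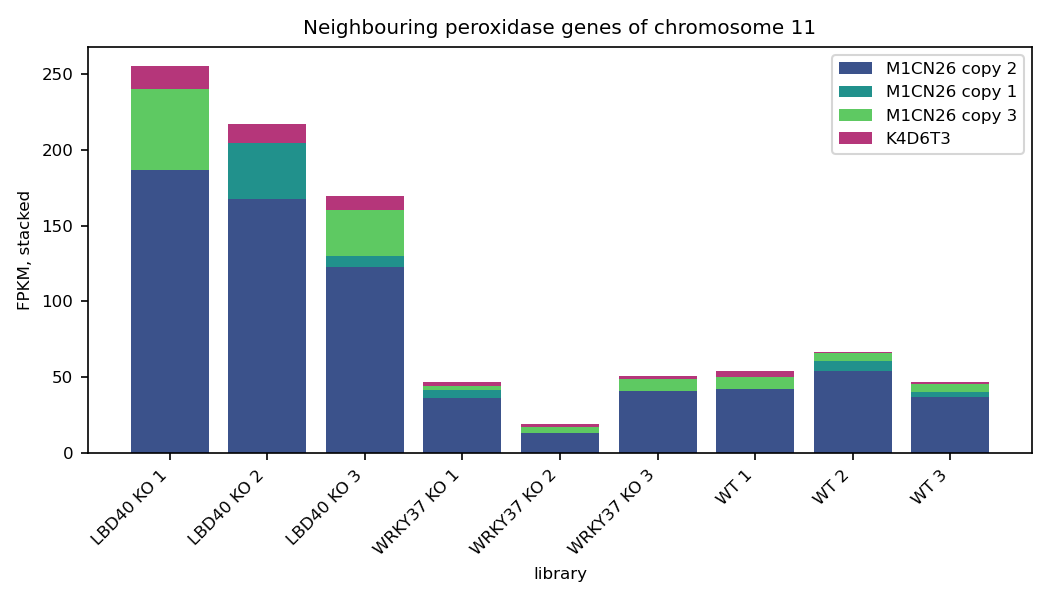
Stacked FPKM of the 4 neighbouring peroxidase genes of chromosome 11 in each library. The height is greatest in the 3 LBD40 knockout libraries, where M1CN26 copy 2 alone reaches 122.6 to 187 FPKM, against at most 40.9 FPKM in the WRKY37 knockout and 53.7 FPKM in WT; copies 1 and 3 change places between LBD40 knockout libraries 1 and 2.

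A second pair of neighbours, K4AX34 and K4AX35 on chromosome 1, had higher means than WT in both knockouts and passed the test in the LBD40 knockout. K4AX34 had 17.5, 32.3 and 34.9 FPKM in the LBD40 knockout, 56.5, 25.6 and 7.95 FPKM in the WRKY37 knockout, and 5.07, 8.01 and 2.57 FPKM in WT. All LBD40 knockout libraries were above WT, whereas WRKY37 knockout replicate 3 lay within the WT range. The log2 change was 2.27 ± 0.59 in the LBD40 knockout (SE, limma, adjusted p = 0.0140) and 2.04 ± 0.59 in the WRKY37 knockout (adjusted p = 0.0569), and the difference between the knockouts did not pass.

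K4AX35 had 2.46, 6.68 and 6.92 FPKM in the LBD40 knockout, 14.2, 3.99 and 2.77 FPKM in the WRKY37 knockout, and 0.83, 2.46 and 0.25 FPKM in WT. LBD40 knockout replicate 1 equalled the highest WT library. Its log2 change was 1.58 ± 0.55 in the LBD40 knockout (SE, limma, adjusted p = 0.0462) and 1.72 ± 0.55 in the WRKY37 knockout (adjusted p = 0.0804). The other 2 genes of this run, K4AX33 and K4AX36, were at 0 in every library. The LBD40 call of K4AX34 was lost when WT replicate 3 was left out (adjusted p = 0.0502). That of K4AX35 was lost under 8 of 19 alternatives, among them the replicate number as a block and leaving out LBD40 knockout replicate 2 or 3, WRKY37 knockout replicate 2 or WT replicate 1 or 3, with an adjusted p of at most 0.144.

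TPX1, a tomato peroxidase linked to lignin and suberin deposition and to salt stress in roots, rose in the LBD40 knockout. It had 7.17, 8.57 and 7.82 FPKM in the LBD40 knockout, 5.47, 3.37 and 0.99 FPKM in the WRKY37 knockout, and 1.91, 3.74 and 2.15 FPKM in WT. The LBD40 knockout libraries were close to each other and above all others, at a mean of 7.85 ± 0.701 FPKM against 2.60 ± 0.995 FPKM in WT (SD, n = 3 each), a log2 change of 1.33 ± 0.37 (SE, limma, adjusted p = 0.0196). The call was lost without LBD40 knockout replicate 2, WT replicate 1 or WT replicate 3, with an adjusted p of at most 0.0655. TPX1 stood beside 3 other family members in the table, K4CFF2, K4CFF3 and K4CFF4, none of which reached the level for testing.

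Of the remaining class III genes that rose, K4BF11 on chromosome 3 was the most abundant, and it was picked out after its values were seen. It had 18.2, 19.3 and 16.0 FPKM in the LBD40 knockout, 17.4, 11.3 and 8.56 FPKM in the WRKY37 knockout, and 9.66, 8.36 and 11.2 FPKM in WT, a log2 change of 0.81 ± 0.22 in the LBD40 knockout (SE, limma, adjusted p = 0.0167). The WRKY37 knockout libraries overlapped the ranges of both WT and the LBD40 knockout.

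K4CQE1 on chromosome 9 and K4BDL3 on chromosome 2 were near the lower limit for testing. K4CQE1 had 2.17, 3.85 and 1.25 FPKM in the LBD40 knockout, 0.42, 0.55 and 0.05 FPKM in the WRKY37 knockout, and 0.61, 0.35 and 0.25 FPKM in WT (log2 change against WT 1.22 ± 0.31 SE, limma, adjusted p = 0.0134). K4BDL3 had 1.56, 2.85 and 2.68 FPKM in the LBD40 knockout, 1.99, 0.97 and 0.37 FPKM in the WRKY37 knockout, and 0.71, 0.45 and 0.44 FPKM in WT (log2 change against WT 1.11 ± 0.31 SE, limma, adjusted p = 0.0182). For both genes the LBD40 knockout libraries lay above WT, and the K4BDL3 call was lost without LBD40 knockout replicate 2 or 3 or WT replicate 2 or 3, with an adjusted p of at most 0.0696.

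A0A2N9EG96 on chromosome 3, named by an entry of beech, was the one tested member that fell in the LBD40 knockout. It had 9.07, 11.2 and 8.46 FPKM in the LBD40 knockout, 12.4, 11.4 and 10.2 FPKM in the WRKY37 knockout, and 14.4, 14.7 and 12.04 FPKM in WT. The groups did not overlap between the LBD40 knockout and WT, but the difference was small, at a log2 change of -0.48 ± 0.15 (SE, limma, adjusted p = 0.0279). It was lost without LBD40 knockout replicate 1 or 3 or WT replicate 1 or 2, with an adjusted p of at most 0.0913.

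The second comparison asked which peroxidase genes differed in the WRKY37 knockout. Of the 32 tested members, 3 passed against WT (limma, adjusted p below 0.05), which is 9.38%, and 9.38% of all tested genes passed. All 3 were class III genes: 1 rose, where 4.82% of all genes rose, and 2 fell, where 4.56% of all genes fell. The median log2 change of the 25 tested class III genes was -0.13 and that over all 32 members 0.08, beside 0.02 over all genes. Without WRKY37 knockout replicate 3, 6 members passed, 3 higher and 3 lower.

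K4BD54 on chromosome 2 showed the largest change of any tested member. It had 24.4, 25.8 and 21.6 FPKM in the LBD40 knockout, 1.09, 1.03 and 2.96 FPKM in the WRKY37 knockout, and 41.6, 21.3 and 24.9 FPKM in WT. The WRKY37 knockout libraries lay far below the other 6, while the LBD40 knockout and WT libraries overlapped. The mean was 1.69 ± 1.10 FPKM in the WRKY37 knockout against 29.3 ± 10.8 FPKM in WT (SD, n = 3 each), a level 17.3 times higher in WT, with a log2 change of -3.51 ± 0.29 (SE, limma, adjusted p = 0.000423). In the family sum, the share of K4BD54 was 0.655% in the WRKY37 knockout against 9.62% in WT. The call was kept under all 20 alternatives tried.

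K4BTH6 on chromosome 4, the third most abundant class III gene, also fell in the WRKY37 knockout. It had 45.8, 53.1 and 45.2 FPKM in the LBD40 knockout, 22.2, 22.7 and 17.2 FPKM in the WRKY37 knockout, and 74.3, 43.0 and 33.2 FPKM in WT. The WRKY37 knockout libraries were below all others, and the WT libraries were spread widely, with the LBD40 knockout inside their range. The log2 change in the WRKY37 knockout was -1.17 ± 0.25 (SE, limma, adjusted p = 0.0166). It did not pass when only the WRKY37 knockout and WT were fitted (adjusted p = 0.0682). Its neighbour in the table, K4BTH7, was under the limit for testing, at 0.57, 0.75 and 0.76 FPKM in the LBD40 knockout, 1.90, 1.45 and 0.70 FPKM in the WRKY37 knockout, and 0.59, 0.19 and 0.66 FPKM in WT, so that for this gene the WRKY37 knockout libraries lay above WT.

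K4D5H3 on chromosome 11, apart from the M1CN26 group, was the member that rose in the WRKY37 knockout. It had 3.23, 5.07 and 7.04 FPKM in the LBD40 knockout, 9.99, 8.93 and 8.13 FPKM in the WRKY37 knockout, and 1.34, 3.40 and 3.40 FPKM in WT. The WRKY37 knockout libraries lay above all others, and the LBD40 knockout overlapped WT. The log2 change was 1.49 ± 0.29 in the WRKY37 knockout (SE, limma, adjusted p = 0.0120) and 0.73 ± 0.29 in the LBD40 knockout (adjusted p = 0.0727), and the call in the WRKY37 knockout was kept under all 20 alternatives.

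**Figure D5:**
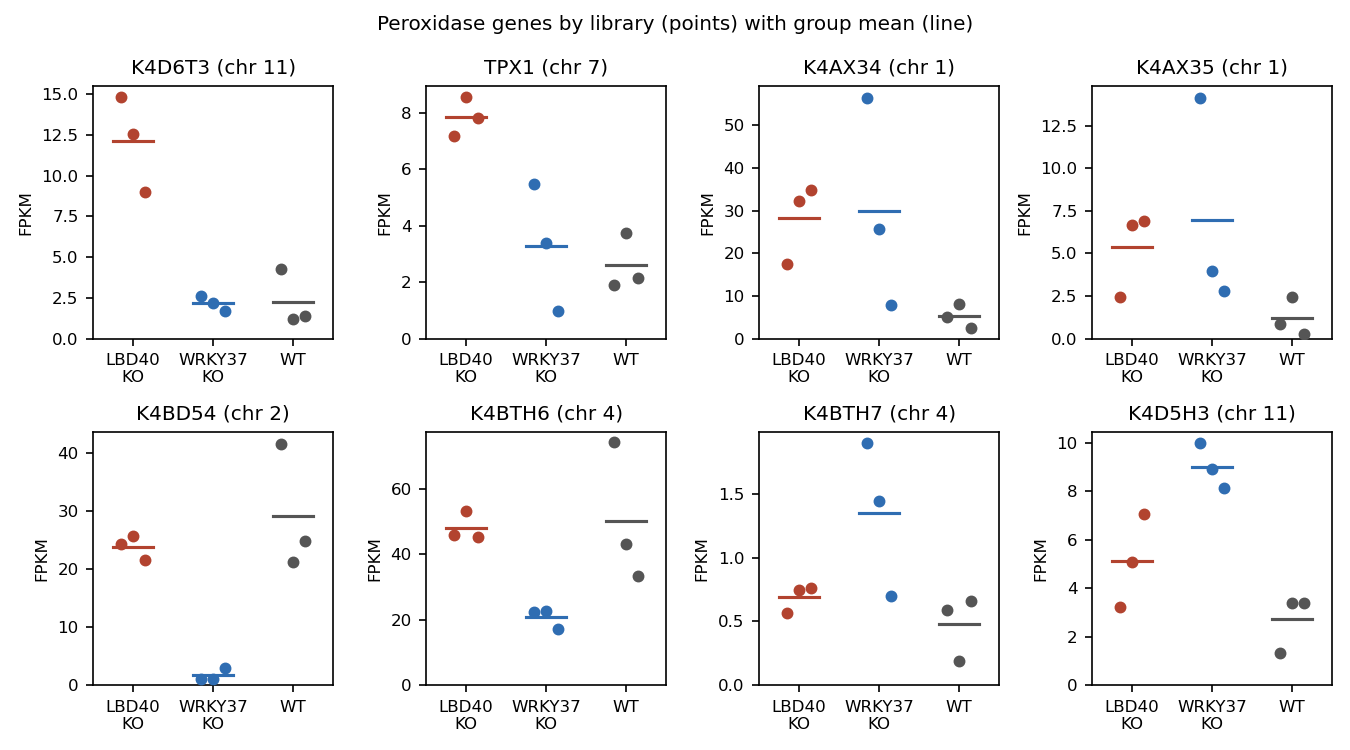
FPKM of 8 class III peroxidase genes in each library (points) with the group mean (line), for the LBD40 knockout, the WRKY37 knockout and WT; each panel has its own linear scale from 0. K4D6T3 and TPX1 are highest in the 3 LBD40 knockout libraries, K4BD54 and K4BTH6 lowest in the 3 WRKY37 knockout libraries, and K4D5H3 highest in them. K4BTH7 was under the limit for testing.

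The knockouts were also compared directly, since a change that passes in one and not in the other is not shown to differ by that alone. Between the LBD40 knockout and the WRKY37 knockout, 9 of the 32 tested members passed (limma, adjusted p below 0.05), 28.1% beside 27.0% of all genes. Of these, 8 were higher in the LBD40 knockout, 25.0% beside 12.9% of all genes, and 1 was lower, 3.12% beside 14.1% of all genes. The median log2 difference was 0.52 over the tested members and -0.081 over all tested genes. Without LBD40 knockout replicate 1 the count was 5, all higher in the LBD40 knockout. This comparison uses the same knockout libraries as those with WT, so its calls are not independent of them.

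Several genes with large changes against WT also differed between the knockouts, while the chromosome 1 pair and K4D5H3 did not pass. The log2 difference of the LBD40 knockout minus the WRKY37 knockout was 3.28 ± 0.29 for K4BD54 (SE, limma, adjusted p = 0.000133), 2.5 ± 0.36 for M1CN26 copy 2 (adjusted p = 0.00164) and 2.04 ± 0.33 for K4D6T3 (adjusted p = 0.00262). It was 1.18 ± 0.25 for K4BTH6 (SE, adjusted p = 0.00803), 1.30 ± 0.31 for K4CQE1 (adjusted p = 0.0148) and 1.21 ± 0.37 for TPX1 (adjusted p = 0.0380). K4CQE1 reached the level for testing through its LBD40 knockout libraries alone, so its difference and its place among the 8 higher members carry that limit. The TPX1 difference was lost under 8 of 19 alternatives, among them each setting that left out an LBD40 knockout library, WRKY37 knockout replicate 2 or 3 or WT replicate 3, with an adjusted p of at most 0.108. For K4D5H3 the difference was -0.76 ± 0.29 and did not pass (adjusted p = 0.0782).

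K4BG30 on chromosome 3 was the member lower in the LBD40 knockout than in the WRKY37 knockout. It had 3.34, 3.3 and 4.36 FPKM in the LBD40 knockout and 5.74, 6.67 and 5.52 FPKM in the WRKY37 knockout, with WT between at 5.44, 5.36 and 4.44 FPKM (log2 difference -0.58 ± 0.16 SE, limma, adjusted p = 0.0252). Neither knockout differed from WT for this gene at the threshold, and the difference was lost under 6 of 19 alternatives, among them the block, the fit of only the groups compared and leaving out LBD40 knockout replicate 1 or 2 or WRKY37 knockout replicate 2.

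Several abundant peroxidases did not pass in any comparison. K4B9S4 on chromosome 2, the second most abundant class III gene, had 61.6, 65.5 and 49.96 FPKM in the LBD40 knockout, 75.6, 43.8 and 43.6 FPKM in the WRKY37 knockout, and 61.4, 48.7 and 64.6 FPKM in WT, and the groups overlapped. K4BBM6, also on chromosome 2, lay between 11.1 and 20.7 FPKM in the LBD40 knockout, 11.4 and 20.0 FPKM in the WRKY37 knockout, and 6.15 and 14.8 FPKM in WT. Others varied widely within a group. K4BCJ6 on chromosome 2 had 6.95, 9.23 and 0.36 FPKM in the LBD40 knockout, was listed at 0 in the WRKY37 knockout, and had 12.3, 0 and 1.29 FPKM in WT. K4CG58 on chromosome 7 had 6.25, 6.19 and 6.62 FPKM in the LBD40 knockout, 3.84, 4.40 and 2.76 FPKM in the WRKY37 knockout, and 20.0, 4.83 and 6.71 FPKM in WT. Its WRKY37 knockout libraries lay below all others, but the log2 change of -1.09 ± 0.39 against WT did not pass (SE, limma, adjusted p = 0.110). K4BBM6, K4BCJ6 and K4CG58 were picked out after their values were seen.

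CEVI16, which RefSeq lists on chromosome 1 with the synonym ep5C, and OCP3 are linked by name. OCP3 is named after an Arabidopsis mutant in which the promoter of the tomato Ep5C peroxidase gene is constitutively active. CEVI16 had 8.24, 15.02 and 16.5 FPKM in the LBD40 knockout, 17.04, 8.72 and 3.44 FPKM in the WRKY37 knockout, and 7.17, 9.70 and 4.10 FPKM in WT. The groups overlapped and no comparison passed. OCP3, on chromosome 8, had 25.1, 24.0 and 19.9 FPKM in the LBD40 knockout, 21.3, 19.8 and 13.8 FPKM in the WRKY37 knockout, and 16.4, 13.7 and 19.0 FPKM in WT. Its LBD40 knockout libraries lay just above WT, and the log2 change of 0.47 ± 0.18 did not pass (SE, limma, adjusted p = 0.0641).

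The 6 haloperoxidase-related genes take their description from a fold shared with acid phosphatases, and 3 of them rose in the LBD40 knockout. Q8L7M6 on chromosome 10, the most abundant member of all, had 109, 121 and 124 FPKM in the LBD40 knockout, 104, 101 and 88.9 FPKM in the WRKY37 knockout, and 78.4, 92.2 and 87.3 FPKM in WT (log2 change against WT 0.45 ± 0.11 SE, limma, adjusted p = 0.00936). Q9FXC5 on chromosome 5 had 7.66, 7.38 and 7.92 FPKM in the LBD40 knockout, 4.36, 3.55 and 1.69 FPKM in the WRKY37 knockout, and 1.86, 3.27 and 2.60 FPKM in WT (log2 change against WT 1.29 ± 0.26 SE, limma, adjusted p = 0.00432). For both, every LBD40 knockout library was above all others. The third, Q8RXV2 on chromosome 1, had a log2 change of 0.90 (limma, adjusted p = 0.0122), and F4I989 on chromosome 4, at 12.4 to 15.1 FPKM in the LBD40 knockout, 16.0 to 20.2 FPKM in the WRKY37 knockout and 13.7 to 16.6 FPKM in WT, did not pass in any comparison.

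Among the 51 members too low to be tested, more were detected in the LBD40 knockout. Of these, 42 were above 0 in at least 1 LBD40 knockout library, 31 in at least 1 WRKY37 knockout library and 32 in at least 1 WT library. The same count over all low genes was not made. Their summed value was 10.4, 11.9 and 11 FPKM in the LBD40 knockout, 7.5, 7.58 and 3.49 FPKM in the WRKY37 knockout, and 5.69, 5.68 and 4.82 FPKM in WT, with the LBD40 knockout libraries above the rest. K4C0T3, in a run of 4 neighbours on chromosome 5, had 1.43, 0.26 and 0.73 FPKM in the LBD40 knockout and was listed at 0 in the other 6 libraries. K4CJ27 on chromosome 8 had 1.43, 1.32 and 1.08 FPKM in the LBD40 knockout, 1.26, 1.19 and 0.25 FPKM in the WRKY37 knockout, and 0.16, 0.31 and 0.16 FPKM in WT. With no low-value filter, K4C0T3, K4C0T5, K4CJ27 and K4DB75 also passed in the LBD40 knockout against WT (limma, adjusted p = 0.0213, 0.0339, 0.0211 and 0.00431). In that fit 15 of 83 members passed, beside 6567 of 29223 genes, so these calls do not set the members apart.

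Peroxidase genes often stood side by side, and few of these runs held more than 1 tested gene. Runs of at least 2 class III genes no more than 5 table rows apart numbered 20 and held 56 of the 116 genes, the longest with 6 genes on chromosome 10. At least 1 tested gene was found in 7 runs and at least 2 in only 2 runs, the K4AX33 to K4AX36 run of chromosome 1 and the M1CN26 run of chromosome 11. In the other 5 of these runs 1 gene was tested beside neighbours at 0 or at low values, as with TPX1, K4BTH6 and K4BCJ6. With 21.6% of all class III genes tested, few runs can hold 2, and whether neighbours share expression was not tested. In some untested runs every gene was above 0 in at least 1 library, as with all 4 genes of the K4C0T3 run and all 3 of the K4BAZ3 run. Values there were low or 0 in many libraries, and K4C0T6 was above 0 only in WRKY37 knockout replicate 1, at 0.04 FPKM. The M1CN26 copies may share reads.

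Libraries of a group were not equal for these genes. Of the 25 tested class III genes, 14 had their highest WRKY37 knockout value in replicate 1 and 18 their lowest in replicate 3. Seed marker lists did not all move alike. The 12 vicilin genes, for a storage protein, summed to 495.8, 631.5 and 683.4 FPKM in the LBD40 knockout, 1303, 1904 and 6700 FPKM in the WRKY37 knockout, and 7974, 7695 and 6099 FPKM in WT. All 9 tested oleosin genes and all 5 tested vicilin genes fell in the LBD40 knockout, and 7 of the 9 and 2 of the 5 fell in the WRKY37 knockout. Of all tested genes, 19.2% fell in the LBD40 knockout and 4.56% in the WRKY37 knockout. In the oleosin list 8 of 19 genes and in the vicilin list 3 of 12 were at 0 in every library. The 2S albumin list, 53 genes found by that phrase in the description, went the other way. In it 25 genes were at 0 in every library, and whether all its genes encode storage proteins was not checked. Of 16 tested genes, 7 rose and 2 fell in the LBD40 knockout and 5 rose and 1 fell in the WRKY37 knockout, with median log2 changes of 0.57 and 0.87. Of 60 tested late embryogenesis abundant genes, 14 rose and 19 fell in the LBD40 knockout, with a median log2 change of 0.01, and 4 rose and 22 fell in the WRKY37 knockout, with a median of -0.27.

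Markers of the radicle and the endosperm cap, where peroxidases are known to act, were mixed. Their counts stand beside 18.0% of all tested genes higher and 19.2% lower in the LBD40 knockout, and 4.82% higher and 4.56% lower in the WRKY37 knockout. Expansins, which loosen walls, had 6 of 15 tested genes higher in the LBD40 knockout and 5 in the WRKY37 knockout, and the 39 genes of the list, 6 of them at 0 throughout, summed to 287.3 to 353.8 FPKM in the LBD40 knockout, 253.0 to 423.8 FPKM in the WRKY37 knockout and 152.3 to 211.8 FPKM in WT. The other 2 radicle lists held no gene that rose: of 2 tested root hair genes 1 fell in the LBD40 knockout, and their list summed to 124.9 to 148.4 FPKM in the LBD40 knockout, 137.2 to 169.4 FPKM in the WRKY37 knockout and 137.8 to 152.9 FPKM in WT. The 1 tested Casparian strip gene did not pass in any comparison, with log2 changes of -0.26 in the LBD40 knockout and -0.43 in the WRKY37 knockout. Mannosidases, which include the enzymes that degrade endosperm mannans, had 6 of 12 tested genes higher and 2 lower in the LBD40 knockout and 4 higher in the WRKY37 knockout. That list of 16 genes, 3 at 0 throughout, summed to 246.5 to 341.3 FPKM in the LBD40 knockout, 291.5 to 449.6 FPKM in the WRKY37 knockout and 190.9 to 233.6 FPKM in WT. The other endosperm list held genes described as glucan endo-1,3-beta-glucosidase, a description that does not tell the tissue. Of its 23 tested genes, 8 rose and 1 fell in the LBD40 knockout and 3 rose and 1 fell in the WRKY37 knockout. Both Rubisco small chain genes, markers of green tissue, were above 0 and summed to 109.0 to 130.5 FPKM in the LBD40 knockout, 16.1 to 29.4 FPKM in the WRKY37 knockout, and 42.1, 52.7 and 173.8 FPKM in WT. Of 18 tested chlorophyll a-b binding genes, 3 rose in the LBD40 knockout and 2 fell in the WRKY37 knockout. Of the fruit markers, 4 of 5 tested polygalacturonases and 2 of 3 tested phytoene synthases rose in the LBD40 knockout, and 2 polygalacturonases rose in the WRKY37 knockout. The part of any of these markers in the peroxidase results was not tested.

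Enzymes that make hydrogen peroxide and the substrates of peroxidases were examined as 8 lists found by description, together 281 genes of which 64 were tested. They are called the wall lists for short, though a description does not tell where in the cell an enzyme acts. The counts of these lists are to be read beside the shares of all tested genes: 18.0% rose and 19.2% fell in the LBD40 knockout, 4.82% rose and 4.56% fell in the WRKY37 knockout, and 12.9% were higher and 14.1% lower in the LBD40 knockout than in the WRKY37 knockout. In the LBD40 knockout 21 of the 64 rose and 9 fell, with a median log2 change of 0.39 beside -0.023 over all genes, and without LBD40 knockout replicate 2 the count was 12 higher and 7 lower. In the WRKY37 knockout 11 rose and 5 fell, with a median of 0.06 beside 0.022 over all genes. That count was the less stable: it was 8 in all under the replicate block and 5 to 10 in all without WRKY37 knockout replicate 1 or 2 or any one of the WT replicates. Between the knockouts 17 were higher in the LBD40 knockout and 7 lower, or 10 and 4 without LBD40 knockout replicate 2, and the median was 0.08 beside -0.081 over all genes.

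Respiratory burst oxidases, which make the superoxide that becomes hydrogen peroxide, had 2 tested genes of 6, and these moved in opposite directions in the LBD40 knockout. The one on chromosome 1 had 49.3, 53.6 and 30.3 FPKM in the LBD40 knockout, 5.81, 4.08 and 4.95 FPKM in the WRKY37 knockout, and 9.73, 3.67 and 4.43 FPKM in WT (log2 change against WT 2.77 ± 0.31 SE, limma, adjusted p = 0.000367). The one on chromosome 5 averaged 2.12 ± 0.744 FPKM in the LBD40 knockout, 3.48 ± 1.12 FPKM in the WRKY37 knockout and 6.31 ± 0.824 FPKM in WT (SD, n = 3 each), and fell in the LBD40 knockout (log2 change -1.25 ± 0.25 SE, limma, adjusted p = 0.00438). Of 8 tested superoxide dismutases, which turn superoxide into hydrogen peroxide, 4 rose in the LBD40 knockout and 1 in the WRKY37 knockout. The gene described as superoxide dismutase 3 had a mean of 83.5 ± 7.80 FPKM in the LBD40 knockout, 43.3 ± 2.16 FPKM in the WRKY37 knockout and 31.7 ± 3.40 FPKM in WT (SD, n = 3 each).

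Amine oxidases release hydrogen peroxide from polyamines. Of 6 tested genes, 1 rose in the LBD40 knockout and 2 rose in the WRKY37 knockout, both of the latter on chromosome 8. Between the knockouts 2 were lower in the LBD40 knockout. The gene described as copper-containing had 14.4, 21.7 and 21.7 FPKM in the LBD40 knockout, 70.9, 73.6 and 132 FPKM in the WRKY37 knockout, and 25.97, 28.8 and 24.3 FPKM in WT (log2 change in the WRKY37 knockout 1.71 ± 0.24 SE, limma, adjusted p = 0.00236). The WRKY37 knockout libraries were above all others. Of the germin-like list, which includes oxalate oxidases that also release hydrogen peroxide, 2 of 7 tested genes fell in the LBD40 knockout and 2 in the WRKY37 knockout. The germin pattern also took 2 tested genes whose description holds germination instead.

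Of the wall substrates and the lignin enzymes, the extensin list had 16 tested genes of 77. Of these, 8 were higher and 3 lower in the LBD40 knockout and 5 higher and 2 lower in the WRKY37 knockout. Extensins are wall glycoproteins that peroxidases cross-link, but the list was found by description and also holds extensin-like proteins. A pistil-specific extensin-like gene on chromosome 2 averaged 23.9 ± 3.50 FPKM in the LBD40 knockout, 23.0 ± 8.46 FPKM in the WRKY37 knockout and 7.003 ± 2.05 FPKM in WT (SD, n = 3 each). Enzymes of lignin precursor synthesis had 21 tested genes, 7 higher and 2 lower in the LBD40 knockout and 3 higher and 1 lower in the WRKY37 knockout. Phenylalanine ammonia-lyase on chromosome 10, the entry step of the pathway, averaged 31.4 ± 2.02 FPKM in the LBD40 knockout, 19.0 ± 3.66 FPKM in the WRKY37 knockout and 13.1 ± 2.70 FPKM in WT (SD, n = 3 each; log2 change in the LBD40 knockout 1.22 ± 0.17 SE, limma, adjusted p = 0.000971). Laccases, the copper oxidases that can replace peroxidases in lignin formation, had 1 tested gene of 33, which did not pass in any comparison. Dirigent proteins, which steer the coupling of lignin radicals, had 3 tested genes of 37, of which 1 fell in the LBD40 knockout.

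The peroxide-removing enzymes outside the family were expressed more broadly, with 29 of 34 genes tested. In the LBD40 knockout 12 rose and 2 fell, where 37.2% of all tested genes passed, 18.0% higher and 19.2% lower, with a median log2 change of 0.15. Without LBD40 knockout replicate 2, WT replicate 1 or WT replicate 2 the count was 8 or 9. In the WRKY37 knockout, where 9.38% of all genes passed, 1 rose and 2 fell, or 0 and 3 after quantile normalization or median-ratio scaling, with a median of -0.03. Between the knockouts, where 27.0% of all genes passed and 12.9% were higher in the LBD40 knockout, 13 were higher in it, with a median of 0.35, or 7 or 8 without LBD40 knockout replicate 1 or 2. Ascorbate peroxidases, which remove hydrogen peroxide inside the cell with ascorbate, had 6 of 8 tested genes higher in the LBD40 knockout, and the one on chromosome 2 averaged 161.3 ± 15.1 FPKM there, 70.7 ± 17.2 FPKM in the WRKY37 knockout and 59.6 ± 11.2 FPKM in WT (SD, n = 3 each).

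A peroxiredoxin and a glutathione peroxidase were among the genes that fell. 1-Cys peroxiredoxin on chromosome 3, known from Arabidopsis and cereals as a seed-specific antioxidant protein, averaged 292.1 ± 12.5 FPKM in the LBD40 knockout, 220.4 ± 143 FPKM in the WRKY37 knockout and 729.6 ± 156 FPKM in WT (SD, n = 3 each). It fell in the LBD40 knockout (log2 change -1.29 ± 0.34 SE, limma, adjusted p = 0.0155) and in the WRKY37 knockout (log2 change -1.88 ± 0.34 SE, adjusted p = 0.00897), both against the same WT libraries. Of the 8 tested genes of the peroxiredoxin list, 3 rose and 1 fell in the LBD40 knockout. Of 8 tested glutathione peroxidases, 1 rose and 1 fell in the LBD40 knockout, with a median log2 change of -0.03, and 1 fell in the WRKY37 knockout. The last averaged 642.2 ± 65.2 FPKM in WT and 313.0 ± 71.9 FPKM in the WRKY37 knockout (SD, n = 3 each; limma, adjusted p = 0.003). Of 5 tested catalases, 2 rose in the LBD40 knockout and 1 in the WRKY37 knockout.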

How the data were processed

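RNA of 9 libraries of tomato seeds, 3 per genotype, was prepared with an RNeasy kit and a SMARTER mRNA library kit, per the labels' protocols. Per the submitters' processing notes, the authors used TopHat2, HISAT2, StringTie and Cufflinks. Tool versions and roles, genome build and annotation were not given in the sources used here. Expression values with 2 decimals were deposited by the authors in 1 table and are taken here as FPKM; no header states the unit, which was inferred from the tools, from values that are not whole and from library sums that differ from each other. WT replicate 1 is printed against the column of gene names and was read by character position. Gene IDs are shortened to 8 characters, so members are named by database entry; 120 of the 123 members carry one, with 111 distinct entries.

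The 18346 genes whose mean reached 1 were tested on the log2(FPKM + 1) scale by limma-trend (limma 3.58.1, R 4.3.3), in 1 fit of all 9 libraries with genotype as its term. Benjamini-Hochberg adjustment ran over every tested gene, and a gene with an adjusted p below 0.05 was said to pass, rise or fall. A log2 change understates the change of low genes. The fit was tested on simulated data. Alternatives were a pseudocount of 0.1, 3 other scalings, other filters, a fit of the compared groups alone, the replicate number as a block, robust estimation, a minimum log2 change of 1, each library left out in turn and, added after the data were seen, copies of a database entry summed. Python 3.11.15, pandas 2.3.3, numpy 2.4.6 and matplotlib 3.10.9 were used for the counts and plots.

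The members and gene lists were chosen with earlier results of these data known, so counts and medians of lists are given without a test. Members given in every library, F4I989 only as ranges, were first the 8 with the highest mean. Next came the called members with the largest changes in each knockout, up to 8 higher and 5 lower. Up to 4 higher and 4 lower with the smallest adjusted p between the knockouts and the 3 highest untested members were added. Genes of the other lists given with values were among up to 2 called per list, some of them as means only. CEVI16, linked by name to OCP3, and M1CN26 copies 1 and 3, which share an entry with copy 2, were added outside these rules. The text says where any other member was picked otherwise.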

Additional observations from a re-analysis of the deposited data

How the results depend on the processing

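No called change of a named peroxidase gene reversed under any alternative. Of the alternative values of single named genes, 924 kept direction and side of the threshold, 37 lost the call, 16 gained one and 19 changed sign. All 19 belonged to changes that had not passed. With each library left out in turn, the log2 change in the LBD40 knockout minus WT was -0.10 to 0.13 for K4B9S4, -0.23 to 0.33 for K4BTH6 and -0.42 to 0.05 for K4BD54. In the WRKY37 knockout minus WT it was -0.18 to 0.46 for K4D6T3, -0.25 to 0.60 for TPX1, -0.01 to 0.48 for Q9FXC5 and -0.19 to 0.09 for K4CQE1. Between the knockouts it was -0.48 to 0.86 for K4AX34 and -0.55 to 0.46 for K4AX35. Quantile normalization gave 0.02 for K4CQE1 in the WRKY37 knockout.

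The peroxidase count in the LBD40 knockout was 6 with a minimum mean of 5, since fewer genes were then tested. With no low-value filter, which adds genes near 0, the median log2 change of the members was 0.058 in the LBD40 knockout and 0.083 between the knockouts. Over class III descriptions alone the median in the WRKY37 knockout was -0.129. The family's share of the library total was 0.0768% in the LBD40 knockout, 0.0457% in the WRKY37 knockout and 0.0481% in WT over all members; over class III descriptions alone it was 0.0573, 0.0291 and 0.0338%, and without the member with the highest mean, Q8L7M6, it was 0.0635, 0.0347 and 0.0385%.

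With a minimum log2 change of 1, which is a stricter rule, all genes called numbered 2005 in the LBD40 knockout, 816 in the WRKY37 knockout and 1499 between the knockouts. Under the same rule the wall oxidation and lignin lists had 14, 7 and 11, and the peroxidases outside the family had 3 in the LBD40 knockout and 5 between the knockouts. With only the 2 groups compared in the fit, all genes called numbered 802 in the WRKY37 knockout and 3147 between the knockouts (1824 higher and 1323 lower), and the wall lists had 5 in the WRKY37 knockout; the cause was not tested. With no filter the wall lists had 8 called genes in the WRKY37 knockout.

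Libraries with one replicate number were not taken as pairs, since over 9 pairs with the same replicate number the correlation of deviations from the group means was -0.104 to 0.063. With the replicate number as a block, 11 peroxidase genes passed in the LBD40 knockout, 3 in the WRKY37 knockout and 8 between the knockouts, and the wall lists had 8 in the WRKY37 knockout.

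Without 1 library, 8 to 13 peroxidase genes passed for the LBD40 knockout, 3 to 6 for the WRKY37 knockout and 5 to 12 between the knockouts, with median log2 changes of 0.355 to 0.53, -0.033 to 0.166 and 0.265 to 0.585. All genes called ranged over 4553 to 7685 in the LBD40 knockout. In the WRKY37 knockout they ranged over 805 to 2649, the low end without WT replicate 1 and the high end without WRKY37 knockout replicate 3. Between the knockouts they ranged over 2321 to 5211, the low end without LBD40 knockout replicate 1. The wall lists had 19 to 34, 5 to 21 and 14 to 29 called genes, and the peroxidases outside the family 8 to 16, 2 to 3 and 7 to 14. The family's share ranged over 0.0749 to 0.0802% for the LBD40 knockout, 0.0406 to 0.0489% for the WRKY37 knockout and 0.0452 to 0.0502% in WT.

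Sequencing depth is unknown, so a value of 0 sets no upper limit on a gene's level.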
